A study of Caenorhabditis elegans with 6 samples.

Results

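The nuclear hormone receptor family of Caenorhabditis elegans was described in first-stage (L1) larvae of 3 strains. Nuclear receptors are transcription factors that typically carry a zinc-finger DNA-binding domain, and many of them bind a ligand. Members were taken as every gene whose name is nhr- followed by a number, with nhr-23, nhr-25 and nhr-85 set apart. This gave 266 genes of the 20190 in the count table.

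HW3826 carries maIs105, an array in which the col-19 promoter, that of an adult cuticle collagen gene, drives green fluorescent protein (GFP). The growth notes call it VT1367 maIs105, and how both strain names relate was not stated further. GR1395, spelled GR1935 in 1 label, carries mgIs49, which holds a mlt-10 promoter driving a destabilised GFP and a ttx-3 GFP reporter; mlt-10 is a moulting gene and ttx-3 a neuronal transcription factor gene. N2, the wild-type laboratory strain, carries neither array. Each array was sampled in 1 strain, so the array and any other difference between strains cannot be told apart. All larvae were starved overnight in M9 buffer so that they stopped together at L1, then grown at 25 °C and collected after 4 h, and polyadenylated RNA of whole animals was sequenced in 2 libraries a strain. Whether both libraries of a strain came from separate cultures is not stated, so the spread between them may be technical. The p-values rest on the spread within all 3 strains together. For each gene that spread was drawn towards that of other genes (3 residual and a median of 10.5 prior degrees of freedom).

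Nuclear receptors bind DNA as monomers, homodimers or heterodimers, and in many of them a small lipophilic ligand sets whether coactivators or corepressors are held. Nematodes have far more of these genes than insects or vertebrates, and most of the extra ones arose by duplication of an ancestor related to the mammalian receptor HNF4. Members with known roles act mainly in the intestine and epidermis, where they adjust fat use, vitamin-dependent metabolism and detoxification, and in development and moulting. For most of the others no role is known.

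Totals lay between 42593688 and 54957641 counts a library, at which a count of 3 equals 0.0546 to 0.0704 counts per 1000000 (CPM). Intestine, epidermis, body wall muscle, neuron, pharynx and germline marker lists were all detected in every strain. Summed germline markers were 150 to 159 CPM in HW3826, 121 to 130 CPM in GR1395 and 143 to 156 CPM in N2, and summed intestine markers were 4912 to 4996, 3812 to 3950 and 4492 to 4570 CPM in the same order. N2 replicate 2 stood apart by gene length: genes in the shortest 20% lay at a median of 0.117 log2 above the 6-library mean, and those in the longest 20% at -0.114. The members' median length of 1291 bases was close to the 1290 of all tested genes. Since whole animals were used, fewer cells of a type and less RNA per cell cannot be told apart.

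Of the 266 members, 224 (84.2%) had enough counts for the test, beside 74.4% of all genes. The other 42 had at most 35 counts summed over all libraries, and 16 of them had no count at all. Untested members were unevenly placed. On chromosome I only 8 of 21 members passed the filter, while 148 of 167 passed on chromosome V, which holds most of the family, and 21 of 22 on X. Over all members the median level was 3.89 CPM per kilobase of gene length (RPKM); 70 members averaged at least 10 RPKM, 115 averaged 1 to 10 RPKM and 81 averaged less than 1 RPKM.

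The most abundant receptor per length was nhr-97, at a mean of 113 RPKM over the 6 libraries, for which no role is stated here. Next came nhr-68 (82 RPKM), a regulator of propionate breakdown, and nhr-49 (75.1 RPKM), the HNF4-related receptor of the fasting response. They were followed by nhr-105 (66 RPKM), nhr-19 (53.7 RPKM), nhr-114 (47 RPKM), which acts in the methionine cycle, nhr-31 (42.2 RPKM), needed to build the tubule of the excretory cell, nhr-1 (39.9 RPKM), nhr-34 (38.8 RPKM) and nhr-88 (38.6 RPKM). These 10 genes held 26.3% of the summed RPKM of the family. Each gene's range over the 6 libraries overlapped that of the next in this order.

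**Figure D1:**
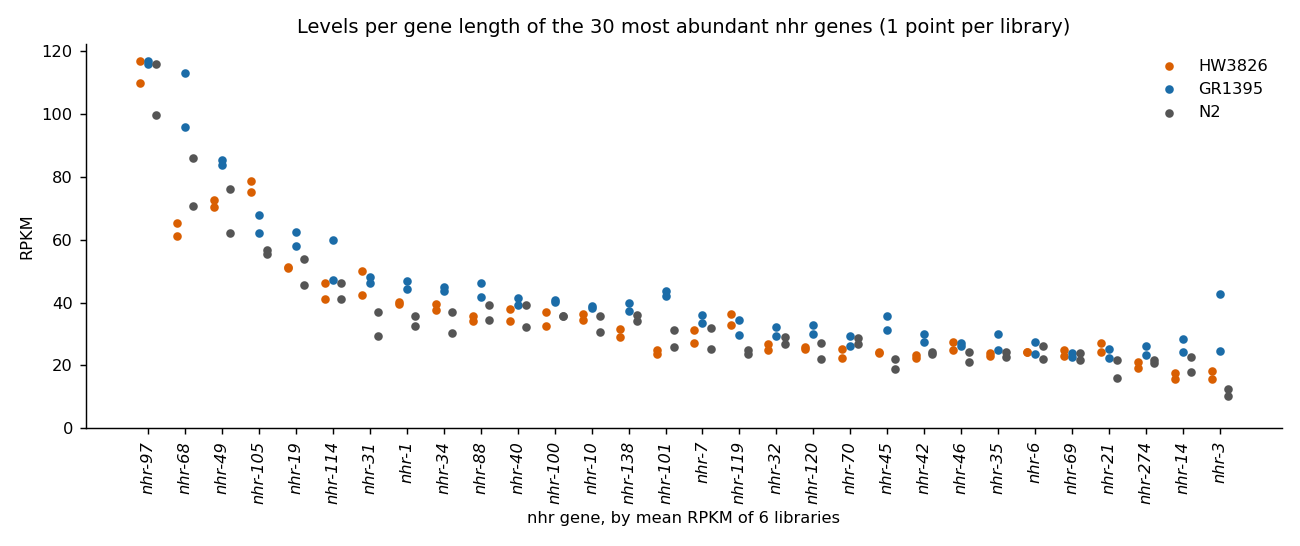
RPKM of the 30 most abundant nhr genes, ordered by their mean over 6 libraries, with 1 point per library and the strains side by side within each gene. nhr-97 leads at a mean of 113 RPKM, and for nhr-68 both HW3826 points lie lowest and both GR1395 points highest.

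Taken over the family, receptor transcripts were most abundant in GR1395. All members together held 0.377% and 0.386% of counts in the HW3826 libraries, 0.451% and 0.426% in the GR1395 libraries, and 0.387% and 0.348% in the N2 libraries. Both GR1395 libraries were above all others, and those of HW3826 and N2 overlapped. The median tested member lay 0.17 and 0.10 log2 above its own 6-library mean in the GR1395 libraries, against -0.07 and -0.04 in HW3826 and -0.01 and -0.11 in N2. Over all tested genes the same medians were between -0.00 and 0.01 in every library.

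In HW3826 against N2 the family as a whole was centred near no change. The edgeR quasi-likelihood test across all 15024 tested genes, with an adjusted p threshold of 0.05, called 12 members higher in HW3826 (5.36% of 224, with 3.54% of all genes called higher) and 3 lower (1.34%, with 2.46% of all genes called lower). The median log2 fold change was -0.02 for members and -0.01 for all genes. Both HW3826 libraries were above both N2 libraries for 54 members (24.1%; 23.6% of all genes) and below them for another 54 (24.1%; 24.3% of all genes). Fewer members were called higher without N2 replicate 2, and fewer lower without HW3826 replicate 1 or 2, as were fewer of all genes. The median over members was then -0.06, -0.01 and -0.03 log2 in the same order.

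In GR1395 against N2, most receptors had positive fold changes, though few reached a 2-fold difference. Of the 224 members, 31 were called higher in GR1395 (13.8%; 7.93% of all genes) and 7 lower (3.12%; 8.15% of all genes). The log2 fold change was positive for 172 members (76.8%) and for 51.7% of all genes, with medians of 0.19 and 0.01. CPM in both GR1395 libraries exceeded both N2 libraries for 136 members (60.7%; 36% of all genes), and 16 members (7.14%; 23.6% of all genes) lay below. Only 10 of the 38 called members changed by 2-fold or more, and the median size of a called change was 0.51 log2. The number called higher rested on single libraries: it was 7 without N2 replicate 2, 8 without GR1395 replicate 1, 19 without GR1395 replicate 2 and 46 without N2 replicate 1. Those counts were 3.1%, 3.54%, 8.44% and 20.4% of members tested, beside 2.58%, 1.75%, 5.08% and 10.7% of all genes in the same order, so without N2 replicate 2 the share of members was close to that of all genes. The number called lower was 3 without N2 replicate 2 and 2 without either GR1395 library. The median over members was 0.14 to 0.23 log2 under every alternative run. Tissue markers moved too: summed neuron markers were 660 to 681 CPM in HW3826, 760 to 787 CPM in GR1395 and 665 to 689 CPM in N2, and called markers in GR1395 against N2 were 3 higher of 5 in pharynx, 1 higher (elt-2) and 2 lower of 8 in intestine, 2 higher and 1 lower of 5 in body wall muscle, 1 higher of 6 in neurons and 4 lower of 7 in germline. With the length trend removed, the pharynx calls of myo-1 (adjusted p = 0.0974) and myo-2 (0.515), the muscle call of unc-54 (0.215) and the neuron call of unc-10 (0.122) ended. Their part in the receptor levels was not tested.

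HW3826 against GR1395 was a direct comparison of both array strains. It called 11 members higher in HW3826 (4.91%; 7.33% of all genes) and 32 lower (14.3%; 7.17% of all genes), with a median log2 fold change of -0.20 for members and -0.01 for all genes. Both HW3826 libraries lay above both GR1395 libraries for 19 members (8.48%; 24.7% of all genes) and below them for 133 (59.4%; 37.4% of all genes). Fewer members were called in each direction when any one library of HW3826 or GR1395 was left out, and so were fewer of all genes. Without GR1395 replicate 1 the share of members called lower came close to that of all genes. In these leave-outs the median was -0.24 to -0.15 log2 for members and -0.01 to -0.00 for all genes.

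**Figure D2:**
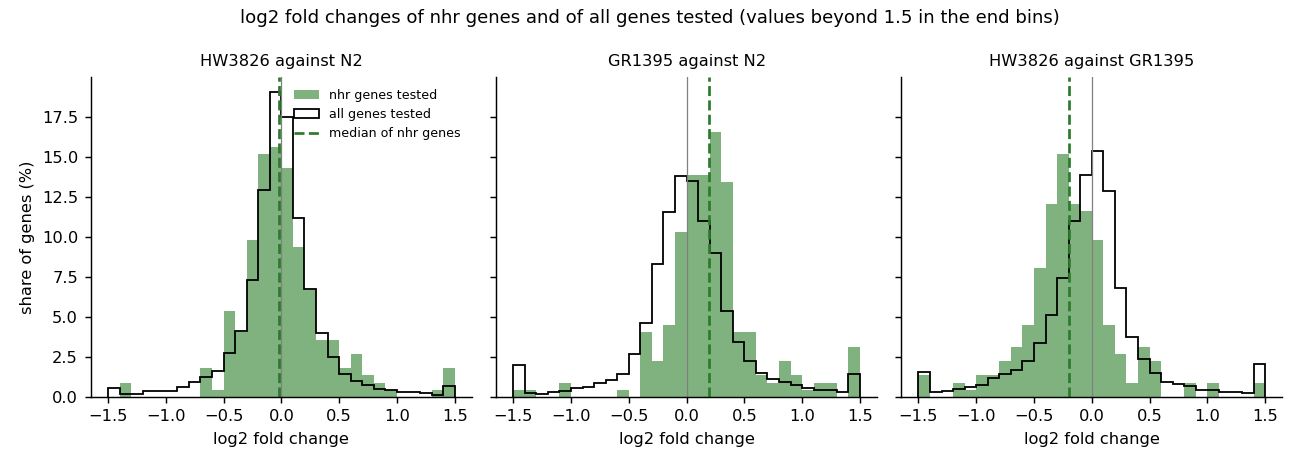
Distribution of log2 fold changes in the 3 comparisons, as the share of genes in each bin, for the 224 tested nhr genes (filled) and for all 15024 tested genes (outline); the end bins hold values beyond 1.5. The dashed median of the nhr genes lies at -0.02 in HW3826 against N2, at 0.19 in GR1395 against N2 and at -0.20 in HW3826 against GR1395.

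In all, 67 of the 224 members (29.9%; 24.6% of all genes) were called in at least 1 comparison and 157 in none. Both array strains share the N2 libraries, so their calls are not independent. nhr-31, nhr-53, nhr-119 and nhr-133 were called against N2 in both. They were 26.7% of the HW3826 calls and 10.5% of the GR1395 calls among members, beside 41.5% and 15.5% over all genes. For nhr-31 the libraries had 103 and 122 CPM in HW3826, 113 and 118 CPM in GR1395, and 90.1 and 71.6 CPM in N2. nhr-31 was higher by 0.48 log2 in HW3826 (SE 0.10, edgeR adjusted p = 0.0189) and by 0.47 log2 in GR1395 (SE 0.10, adjusted p = 0.0117). The HW3826 call was lost without N2 replicate 2 or HW3826 replicate 2 (adjusted p up to 0.167), and the GR1395 call without N2 replicate 2 or GR1395 replicate 2 (up to 0.0597).

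The first list holds 11 receptors of fat metabolism and fasting, all tested. Of these, 1 was called in HW3826 against N2 (6% of all genes called), 0 in GR1395 against N2 (16.1%) and 2 in HW3826 against GR1395 (14.5%). nhr-49, which switches on mitochondrial beta-oxidation and fatty acid desaturase genes, had 153 and 158 CPM in HW3826, 186 and 183 CPM in GR1395, and 166 and 135 CPM in N2. Both GR1395 libraries were above all others, and N2 spanned those of HW3826. Against N2 its log2 fold change came to 0.05 in HW3826 (SE 0.09, edgeR adjusted p = 0.82) and 0.25 in GR1395 (SE 0.09, adjusted p = 0.0666), so neither passed. Its dimer partners had log2 fold changes against N2 of 0.13 in HW3826 and 0.08 in GR1395 for nhr-80, 0.20 and 0.17 for nhr-66, and -0.22 and -0.09 for nhr-13, with none called. The call against N2 was that of nhr-62.

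nhr-62, on chromosome I at 9839598-9844809 (plus strand; all positions are on the WBcel235 assembly, also named ce11), is an HNF4-related receptor needed for the long life of worms under dietary restriction. It had 8.90 and 9.09 CPM in HW3826, 6.82 and 5.99 CPM in GR1395, and 5.80 and 5.78 CPM in N2. The HW3826 libraries lay above all others. nhr-62 was higher by 0.63 log2 than in N2 (SE 0.13, edgeR adjusted p = 0.00925; 0.0575 without HW3826 replicate 2) and by 0.53 log2 than in GR1395 (SE 0.12, adjusted p = 0.0121; lost without either HW3826 library or GR1395 replicate 2). nhr-88 had 151 and 143 CPM in HW3826 against 195 and 177 CPM in GR1395, a difference of -0.29 log2 (SE 0.08, adjusted p = 0.0281), which was lost without either HW3826 library or GR1395 replicate 1.

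Genes known to depend on NHR-49 were read beside the receptor. This list and the other pathway lists were chosen with earlier results of these data known, so their shares of calls are no test of them. Of its 13 genes, lbp-8 was not tested. Among the 12 tested, 6 rose in HW3826 against N2 and 0 fell (3.54% of all genes rose). They included acs-2, an acyl-CoA synthetase of beta-oxidation, with 302 and 271 CPM in HW3826 against 85.8 and 90.5 CPM in N2, a log2 fold change of 1.70 (SE 0.09, edgeR adjusted p = 1.32e-07). The others were fat-5 (1.79) and fat-6 (0.64), both fatty acid desaturase genes, the hydroxyacyl-CoA dehydrogenase gene hacd-1 (1.38), acdh-2 (1.08) and acs-11 (0.40). The 6 that did not pass were fat-7 (0.05), icl-1 (0.05), ech-1.1 (0.11), cpt-5 (0.25), fmo-2 (2.16, adjusted p = 0.0573) and ech-9 (-0.83, adjusted p = 0.0773). In GR1395 against N2, fmo-2 rose and fat-7 and cpt-5 fell among the same 12, and acs-2 had 75.7 and 85.7 CPM with a log2 fold change of -0.17 (adjusted p = 0.218). In HW3826 against GR1395, 8 of the 12 were higher and 0 lower (7.33% of all genes were higher). The HW3826 call of hacd-1 was lost without N2 replicate 2, that of acdh-2 without either N2 library and that of acs-11 without either HW3826 library, and each of the 3 GR1395 calls was lost in at least 1 leave-out.

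The receptors of propionate and methionine metabolism are nhr-10, nhr-68 and nhr-114. NHR-10 and NHR-68 switch on the propionate shunt, the breakdown route used when vitamin B12 is low, and NHR-114 acts when methionine cycle flux is low. nhr-68 (chromosome V, 11573440-11575709, plus strand) had 83.8 and 89.3 CPM in HW3826, 131 and 155 CPM in GR1395, and 118 and 97.1 CPM in N2. The 3 strains did not overlap: HW3826 was lowest and GR1395 highest. It rose by 0.37 log2 in GR1395 (SE 0.10, edgeR adjusted p = 0.0311), a call lost without N2 replicate 2 or GR1395 replicate 2, and its value in HW3826 against N2 was -0.31 log2 (SE 0.10, adjusted p = 0.105). HW3826 was lower than GR1395 by a log2 fold change of -0.68 (SE 0.10, adjusted p = 0.0012), which held in all 6 leave-outs, with adjusted p up to 0.00838.

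nhr-10 had 53.0 and 56.2 CPM in HW3826, 59.8 and 59.0 CPM in GR1395, and 55 and 47.5 CPM in N2. The GR1395 libraries were highest by a narrow margin, and the log2 fold changes against N2 of 0.09 in HW3826 and 0.17 in GR1395 did not pass. nhr-114 had 71.1 and 63.2 CPM in HW3826, 72.8 and 92.2 CPM in GR1395, and 71.1 and 63.3 CPM in N2. HW3826 and N2 overlapped closely, and the 0.25 log2 of GR1395 against N2 (SE 0.12, edgeR adjusted p = 0.174) did not pass.

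Genes of the propionate shunt were higher in GR1395, in a list chosen with earlier results of these data known. Against N2, 5 of the 9 tested propionate genes rose and 0 fell (7.93% of all genes rose), and these were the shunt genes: the acyl-CoA dehydrogenase gene acdh-1 by 0.69, hphd-1 by 0.75, ech-6 by 0.46, hach-1 by 0.38 and alh-8 by 0.37 log2. acdh-1, the first enzyme of the shunt, had 1060 and 882 CPM in HW3826, 1329 and 1705 CPM in GR1395, and 982 and 846 CPM in N2. Both GR1395 libraries were above all others, yet the calls of acdh-1, hphd-1 and hach-1 were each lost without either N2 library, with edgeR adjusted p up to 0.285, 0.269 and 0.290. ech-6 was lost without N2 replicate 2 or GR1395 replicate 2, and alh-8 and hach-1 without GR1395 replicate 2. None of the other 4, of the B12-dependent route (pcca-1, pccb-1, mce-1 and mmcm-1) was called in GR1395 against N2, and mce-1 rose by 0.45 log2 in HW3826 (SE 0.08, adjusted p = 0.00609).

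Of 11 methionine cycle genes, also a list chosen with earlier results known, 3 rose in GR1395 against N2 (7.93% of all genes) and 0 fell (8.15%). sams-1, which makes S-adenosylmethionine, had 1173 and 1268 CPM in HW3826, 1678 and 1911 CPM in GR1395, and 906 and 929 CPM in N2. The strains were fully separate, with GR1395 highest and N2 lowest, and sams-1 rose by 0.92 log2 in GR1395 (SE 0.09, edgeR adjusted p = 9.56e-05) and by 0.41 log2 in HW3826 (SE 0.09, adjusted p = 0.0177; lost without either HW3826 library). The transporter gene pmp-5 had 146 and 135 CPM in HW3826, 260 and 316 CPM in GR1395, and 192 and 171 CPM in N2, the same order of strains as nhr-68. pmp-5 rose by 0.62 log2 in GR1395 (SE 0.10, adjusted p = 0.00232), and mthf-1 by 0.35 log2 (SE 0.10, adjusted p = 0.0351; lost without any one library except GR1395 replicate 1).

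**Figure D3:**
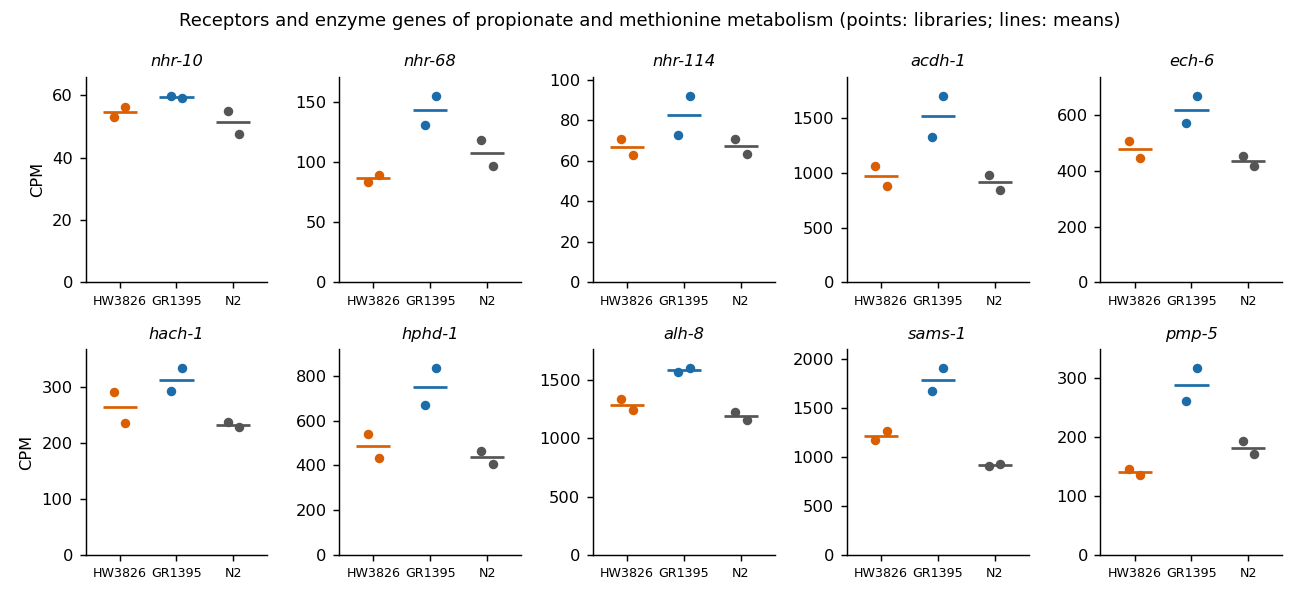
CPM of nhr-10, nhr-68, nhr-114 and 7 enzyme or transporter genes of propionate and methionine metabolism in HW3826, GR1395 and N2, with 1 point per library, a line at the mean of 2 libraries and axes that start at 0. In all 10 genes both GR1395 points are above both N2 points, and for nhr-68 and pmp-5 both HW3826 points are below both N2 points.

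Of 8 tested receptors of the response to toxins, sterols, pathogens and stress, 0 were called in HW3826 against N2 (6% of all genes called). The list had 2 calls in GR1395 against N2 (16.1%) and 3 in HW3826 against GR1395 (14.5%), all 3 lower in HW3826. It included the call with the lowest adjusted p of any member in GR1395 against N2. nhr-45 (X, 4656433-4660318, minus strand), which takes part in detoxification and mitochondrial stress responses, had 49.4 and 49.2 CPM in HW3826, 72.9 and 63.8 CPM in GR1395, and 45.2 and 38.8 CPM in N2. All strains were separate, with GR1395 highest. It rose by 0.66 log2 in GR1395 against N2 (SE 0.09, edgeR adjusted p = 0.00051), a call that held in all 6 leave-outs, and was lower in HW3826 than in GR1395 (log2 fold change -0.43, SE 0.09, adjusted p = 0.00544; 0.0817 without GR1395 replicate 1).

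nhr-14 (X, 8473722-8476178, minus strand), a regulator of intestinal iron uptake and of the response to pathogens, had 29.3 and 32.6 CPM in HW3826, 52.6 and 45.2 CPM in GR1395, and 41.9 and 33.3 CPM in N2. As for nhr-68, HW3826 was lowest and GR1395 highest, with no overlap. Against N2 nhr-14 rose by 0.34 log2 in GR1395 (SE 0.10, edgeR adjusted p = 0.0461; lost without N2 replicate 2 or GR1395 replicate 1), and its value in HW3826 was -0.28 log2 (SE 0.11, adjusted p = 0.155). HW3826 lay below GR1395 by a log2 fold change of -0.62 (SE 0.10, adjusted p = 0.00227), also in all 6 leave-outs.

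nhr-8, which takes part in the response to toxins and in cholesterol balance, had 25.1 and 33.6 CPM in HW3826, 40.1 and 44.2 CPM in GR1395, and 30.8 and 22 CPM in N2. GR1395 was highest, but the 0.63 log2 against N2 (SE 0.18, edgeR adjusted p = 0.0549) missed the threshold. For nhr-48, nhr-86, nhr-57, nhr-28 and nhr-42 no call was made against N2 in either strain, with log2 fold changes between -0.07 and 0.34 in HW3826 and between 0.00 and 0.26 in GR1395. Among the 14 P-glycoprotein genes, which code for drug efflux pumps, 3 rose in HW3826 (pgp-1, pgp-9 and pgp-14; 3.54% of all genes), 4 rose in GR1395 (pgp-1, pgp-5, pgp-8 and pgp-11; 7.93%) and 1 fell in GR1395 (pgp-13; 8.15%). Of these calls, pgp-1 in both strains and pgp-14 held in all 6 leave-outs.

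Of 11 tested receptors with close relatives across animals or tied to development, 1 was called in HW3826 against N2 (nhr-31 higher; 6% of all genes called), 4 in GR1395 against N2 (nhr-1, nhr-31 and nhr-41 higher, nhr-2 lower; 16.1%) and 2 in HW3826 against GR1395 (14.5%). nhr-6, the NR4A relative, had 58.0 and 58.1 CPM in HW3826, 56.5 and 65.9 CPM in GR1395, and 62.7 and 52.7 CPM in N2, and the strains overlapped. nhr-67, related to tailless, nhr-91, related to GCNF, and nhr-40, which acts in early muscle development, had log2 fold changes against N2 of 0.01 to 0.14 in HW3826 and -0.11 to 0.27 in GR1395, with none called. nhr-41, related to TR2 and TR4, had 23.4 and 23.4 CPM in HW3826, 30.6 and 29.5 CPM in GR1395, and 26.1 and 21.3 CPM in N2. It was just called in GR1395 against N2 (0.30 log2, SE 0.10, edgeR adjusted p = 0.0487), and 5 of the 6 leave-outs ended that call. nhr-1 rose by 0.37 log2 in GR1395 (SE 0.07, adjusted p = 0.00598; 0.0591 without GR1395 replicate 1), with 151 and 144 CPM against 116 and 105 CPM in N2. nhr-111 had no count in any library, which allows at most 0.0704 CPM.

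nhr-2 (I, 5818474-5821134, minus strand), which acts in the early embryo, was the one of the 11 tested members of this list that fell in GR1395. It had 3.90 and 2.83 CPM in HW3826, 1.58 and 1.71 CPM in GR1395, and 3.57 and 3.23 CPM in N2. The GR1395 libraries were lowest, and those of HW3826 spanned N2. It fell by 1.09 log2 in GR1395 against N2 (SE 0.21, edgeR adjusted p = 0.00512; 0.0587 without GR1395 replicate 1) and was higher by 1.08 log2 in HW3826 than in GR1395 (SE 0.21, adjusted p = 0.00473; up to 0.0598 without HW3826 replicate 1 or GR1395 replicate 1). Of the 7 germline markers, 0 rose and 4 fell in GR1395 against N2, pie-1 by 1.42, oma-1 by 2.18 and mex-3 by 0.43 log2, and nos-2 with 0.00 and 0.296 CPM in GR1395 against 1.43 and 2.90 CPM in N2, with the summed levels given above, and their part in this result was not tested.

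The receptors expressed in seam cells, the epidermal cells that make the cuticle ridges called alae, gave the largest called changes in HW3826 against N2. nhr-74 and nhr-73 are neighbours on chromosome I, at 11429014-11432156 (plus strand) and 11433671-11436018 (minus strand). nhr-74 had 6.15 and 6.28 CPM in HW3826, 2.29 and 1.52 CPM in GR1395, and 2.02 and 1.87 CPM in N2. HW3826 stood well above the other strains, and the GR1395 libraries spanned those of N2. It rose by 1.67 log2 in HW3826 against N2, a 3.19-fold change (SE 0.20, edgeR adjusted p = 0.000231), and was 3.34-fold higher than in GR1395 (log2 1.74, SE 0.19, adjusted p = 9.69e-05), both in all 6 leave-outs.

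nhr-73 was close to the limit of detection, with 29 and 12 counts in HW3826, 15 and 9 in GR1395, and 3 and 2 in N2. The CPM ratio of HW3826 to N2 was 7.17, with an exact binomial 95% interval of 2.84 to 23.3 that covers counting error only. It was called in HW3826 against N2 (fitted log2 2.77, SE 0.71, edgeR adjusted p = 0.0366), and leaving out either N2 library or HW3826 replicate 1 ended that call. No call was made for it in GR1395 against N2 (adjusted p = 0.0993) or in HW3826 against GR1395 (adjusted p = 0.333). The other seam-cell receptors of the list on this chromosome, nhr-77, nhr-81, nhr-82 and nhr-89, had 0 to 3 counts over all libraries and could not be tested. The 6 epidermis markers, with nhr-23 among them, had no call in any comparison, and summed to 292 to 293 CPM in HW3826, 309 to 311 CPM in GR1395 and 283 to 291 CPM in N2.

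Among members without a role stated here, nhr-11, nhr-53, nhr-119 and nhr-105 were the others whose rise in HW3826 against N2 held in all 6 leave-outs. nhr-11 (IV, 9070003-9073622, plus strand) had 13.8 and 13.3 CPM in HW3826, 11 and 9.37 CPM in GR1395, and 8.64 and 6.93 CPM in N2, a rise of 0.80 log2 over N2 (SE 0.13, edgeR adjusted p = 0.00197). nhr-53 (V, 15700606-15702363, minus strand) had 18 and 16.2 CPM in HW3826, 14.6 and 12.9 CPM in GR1395, and 9.86 and 10.8 CPM in N2, a rise of 0.73 log2 (SE 0.11, adjusted p = 0.0017). In both genes HW3826 was highest, GR1395 intermediate and N2 lowest, with no overlap. nhr-119 had 82.4 and 73.9 CPM in HW3826 against 55.9 and 53.3 CPM in N2 (0.52 log2, SE 0.09, adjusted p = 0.00306). nhr-105 had 125 and 119 CPM in HW3826 against 90.1 and 87.8 CPM in N2 (0.45 log2, SE 0.08, adjusted p = 0.00285).

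The remaining HW3826 calls against N2 were sensitive to single libraries. nhr-231 (0.76 log2), nhr-170 (0.62), nhr-137 (0.47) and nhr-21 (0.45) were called higher, and nhr-133 (-0.49), nhr-96 (-0.45) and nhr-109 (-0.37) lower, each lost without N2 replicate 2. nhr-137 had 27.7 and 28.2 CPM in HW3826, 20.8 and 22.1 CPM in GR1395, and 21.9 and 18.4 CPM in N2. HW3826 was clearly highest, and GR1395 and N2 overlapped.

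**Figure D4:**
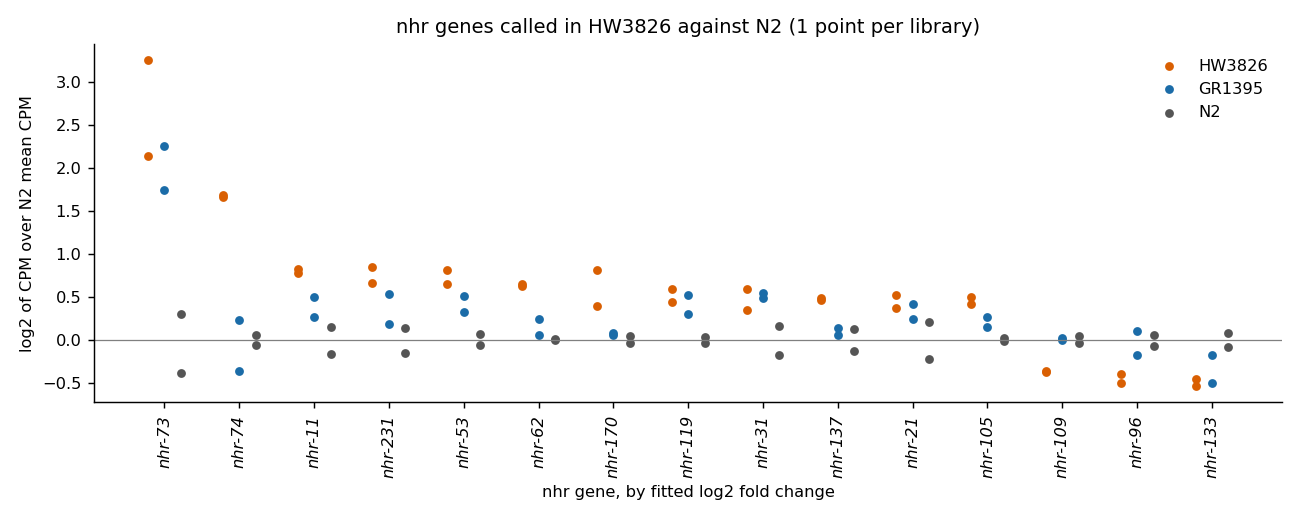
The 15 nhr genes called in HW3826 against N2, as log2 of each library's CPM over the mean CPM of N2, with 1 point per library and the strains side by side. For nhr-74 the HW3826 points stand apart from those of GR1395 and N2, whereas for nhr-53, nhr-119 and nhr-31 the GR1395 points also lie above N2.

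In GR1395 most calls fell on members without a stated role, which were also most of the members tested. nhr-3 (X, 14558504-14561432, plus strand) had the largest rise of a member above 2 CPM, with 31.5 and 27.5 CPM in HW3826, 74.4 and 42.7 CPM in GR1395, and 21.6 and 17.9 CPM in N2. GR1395 was highest, but its libraries were far apart. The rise over N2 was 1.52 log2 (SE 0.28, edgeR adjusted p = 0.029), and it was lost without any one library of N2 or HW3826 (adjusted p up to 0.295). nhr-115 (V, 2292540-2294800, plus strand) had 3.47 and 4.19 CPM in HW3826, 6.02 and 5.88 CPM in GR1395, and 3.55 and 2.64 CPM in N2. Only GR1395 stood apart, and the rise of 0.90 log2 over N2 (SE 0.17, adjusted p = 0.00476) held in all 6 leave-outs.

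Next to nhr-68 lies nhr-101 (V, 11570476-11572549, plus strand), with 30.9 and 32.4 CPM in HW3826, 56.8 and 54.5 CPM in GR1395, and 40.8 and 33.7 CPM in N2. The order of strains was that of nhr-68, with GR1395 highest, HW3826 lowest and no overlap. nhr-101 rose by 0.53 log2 in GR1395 against N2 (SE 0.09, edgeR adjusted p = 0.00194) and was lower in HW3826 than in GR1395 (log2 fold change -0.77, SE 0.09, adjusted p = 0.000124), both in all 6 leave-outs. Of its 1300 exon bases, 887 overlap H12C20.7, a protein-coding gene on the other strand that was not analysed here, and 80 overlap pms-2, also on the other strand, and the strand setting of the counting is not given in the sources used here.

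nhr-202 (V, 462588-464963, plus strand) was the fall with the lowest adjusted p in GR1395 against N2. It had 13.7 and 13.6 CPM in HW3826, 8.04 and 5.61 CPM in GR1395, and 14.5 and 13.2 CPM in N2. HW3826 lay within the range of N2, and GR1395 below both. It fell by 1.06 log2 against N2 (SE 0.14, edgeR adjusted p = 0.000568) and was 2.06-fold higher in HW3826 than in GR1395 (log2 1.04, SE 0.14, adjusted p = 0.000422), both in all 6 leave-outs. Its same-strand neighbour nhr-201, with which it shares 36 exon bases, had log2 fold changes of 0.25 in HW3826 and 0.16 in GR1395 against N2, neither called.

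Members that separated the array strains in all 6 leave-outs also included nhr-4 and nhr-277. nhr-4 had 16 and 18 RPKM in HW3826, 25.5 and 23.7 RPKM in GR1395, and 20.6 and 18.4 RPKM in N2, and was lower in HW3826 than in GR1395 (log2 fold change -0.49, SE 0.09, edgeR adjusted p = 0.00256). N2 lay between the array strains. nhr-277 had 14.6 and 15 CPM in HW3826, 11.3 and 10.5 CPM in GR1395, and 13.8 and 13.7 CPM in N2, and was higher in HW3826 (log2 fold change 0.49, SE 0.10, adjusted p = 0.00567). Its GR1395 libraries were lowest. Other members lower in HW3826 than in GR1395 included nhr-38 (-0.83 log2), nhr-152 (-0.77), nhr-208 (-0.73), nhr-216 (-0.72), nhr-185 (-0.68), nhr-115 (-0.60) and nhr-43 (-0.59). Each of these 7 was lost in at least 2 leave-outs.

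**Figure D5:**
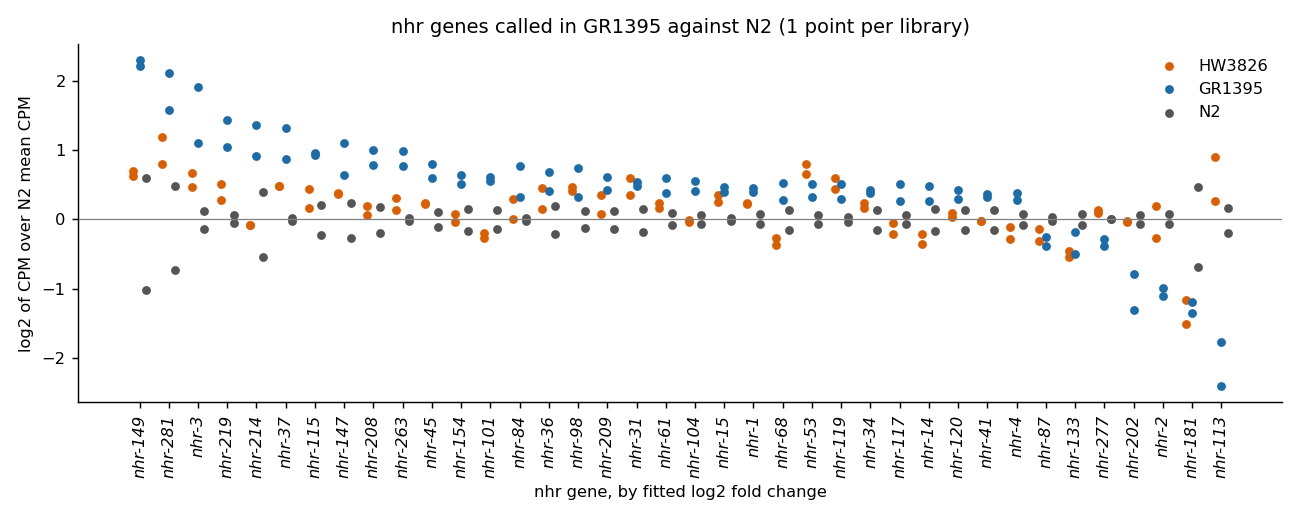
The 38 nhr genes called in GR1395 against N2, as log2 of each library's CPM over the mean CPM of N2, with 1 point per library and the strains side by side. The 31 higher genes run from nhr-149 (log2 fold change 2.22) to nhr-4 (0.29), and for nhr-202 and nhr-113 the HW3826 points stay near or above N2 while those of GR1395 lie below.

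Members below 2 CPM in every library, named here after their values were seen, made up 7 of the 10 called changes of 2-fold or more in GR1395 against N2. These were nhr-149, nhr-281, nhr-219, nhr-214 and nhr-37, which rose, and nhr-113 and nhr-181, which fell, and all but nhr-149 were lost in at least 3 leave-outs. nhr-149 had 0.506 and 0.482 CPM in HW3826, 1.53 and 1.44 CPM in GR1395, and 0.470 and 0.153 CPM in N2, a rise of 2.22 log2 over N2 in GR1395 (SE 0.41, edgeR adjusted p = 0.00399) that held in all 6 leave-outs. It overlaps nhr-147 on the other strand by 323 exon bases, so without the strand setting their reads cannot be told apart. nhr-113 had 0.675 and 1.05 CPM in HW3826, 0.164 and 0.106 CPM in GR1395, and 0.493 and 0.632 CPM in N2. GR1395 was lowest for it, and HW3826 was highest. It fell by 2.08 log2 in GR1395 against N2 (SE 0.50, adjusted p = 0.0148; up to 0.093 in leave-outs) and was 6.38-fold higher in HW3826 than in GR1395 (log2 2.67, SE 0.48, adjusted p = 0.00264, in all 6 leave-outs), beside the lower germline markers in GR1395 given above, whose part was not tested.

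Many members lie next to each other in the genome. Joining members that lie within 10000 bases of each other gave 44 runs that held 159 of the 266, the largest of 12 genes. The runs named next were picked after their values were seen and are described without a test. Over the whole family 13.8% of members were called higher in GR1395 against N2 (7.93% of all genes). In HW3826 against N2, 5.36% were called higher (3.54%) and 1.34% lower (2.46%). In the run of nhr-263, nhr-148, nhr-147 and nhr-149 (V, 7340403-7349641), 3 were called higher in GR1395 against N2, and nhr-148 had a log2 fold change of 0.84 (edgeR adjusted p = 0.0574). Of those 3, nhr-147 and nhr-149 share 323 exon bases on opposite strands, so their calls may count the same reads. In that from nhr-206 to nhr-136 (V, 12092006-12109313), nhr-208, nhr-209 and nhr-154 of 7 genes were called higher in GR1395. nhr-231 and nhr-170 (V, 18790958-18800826) were both called higher in HW3826. From nhr-133 to nhr-96 (V, 2210510-2235180) all 9 genes had negative log2 fold changes in HW3826 against N2, with a median of -0.37. Over the family 119 of 224 tested members were negative there, with 46.9% positive beside 47.5% of all genes. Of the run, nhr-133 and nhr-96 were called, both sensitive to single libraries as given above.

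Receptors outside the naming rule and genes listed as partners of nuclear receptors were read from the same fit. nhr-85, a Rev-erb relative with a role in developmental timing, rose by 0.50 log2 in HW3826 (SE 0.10, edgeR adjusted p = 0.0118; lost without HW3826 replicate 1) and by 0.38 log2 in GR1395 (SE 0.10, adjusted p = 0.0253; lost without N2 replicate 1 or either GR1395 library), with 18.6 and 18.1 CPM, 17.7 and 17.2 CPM, and 12 and 13.9 CPM in HW3826, GR1395 and N2. The moulting receptor genes nhr-23 and nhr-25 had values of 0.14 and 0.18 log2 in HW3826 and 0.02 and 0.27 log2 in GR1395, with none called. daf-12, the dafachronic acid receptor, rose by 0.45 log2 in HW3826 (SE 0.11, adjusted p = 0.0383), a call lost without N2 replicate 2 or either HW3826 library. daf-36, which codes for the first enzyme of dafachronic acid synthesis, had 27.9 and 31.9 CPM in HW3826, 19.0 and 22.6 CPM in GR1395, and 17.7 and 18.2 CPM in N2. HW3826 was highest and N2 lowest, with no overlap, and its rise of 0.73 log2 over N2 (SE 0.11, adjusted p = 0.00134) held in all 6 leave-outs.

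Of 10 genes listed as coregulators, 2 rose in HW3826 (3.54% of all genes) and 6 in GR1395 (7.93%) against N2, with 0 lower. The HW3826 calls were din-1, a corepressor partner of DAF-12, and dpy-22, a Mediator subunit. In GR1395 they were these 2 with the Mediator genes mdt-15 and let-19, the acetyltransferase gene cbp-1 and nhl-2. The last is a TRIM-NHL protein gene, and no action on nuclear receptors is stated for it here. All but nhl-2 lost their calls once the length trend of every library was removed. Their GR1395 values were then 0.08 to 0.16 log2, with edgeR adjusted p of 0.102 to 0.397. nhl-2 remained at 0.46 log2 (adjusted p = 0.00328).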

How the data were processed

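Whole L1 larvae of HW3826, GR1395 and N2 were sequenced in 2 libraries each. The authors deposited raw counts per gene with a gene length in bases, and log2 values that equal log2 of the count scaled to the mean library total plus 8, to within 5.15e-14 when recomputed from the deposited counts. Per the labels' protocols, the kit was Illumina Stranded mRNA Prep, with paired-end reads. The submitters' processing notes name ce11 and HISAT2 1.10.0; what did the counting, on which annotation and by which strand setting, is not given in the sources used here.

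Names and positions came from Ensembl release 115 (WBcel235), which named 20105 of 20190 genes. Raw counts were tested with edgeR 4.0.16 (R 4.3.3, limma 3.58.1): TMM scaling (factors 0.977 to 1.034), the default expression filter (15024 genes), 1 coefficient per strain, all 6 libraries, robust quasi-likelihood, 3 residual degrees of freedom, Benjamini-Hochberg adjustment over all tested genes, threshold 0.05. The median biological coefficient of variation was 8.32%. CPM are counts per 1000000 counts of a library, and RPKM are CPM per kilobase of the deposited length. The limit from 3 counts covers counting error only.

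Members, role lists and pathway lists were chosen with earlier results of these data known. Members named were, per comparison, up to 10 rises and 10 falls with at least 2 CPM in the higher strain and no overlap, the role lists (nhr-75 was not matched), and the 10 highest RPKM. Alternatives were upper-quartile scaling, no or a stricter filter (2 CPM in 2 libraries), only the strains compared, a replicate block, removal of the length trend, each library left out, DESeq2 1.42.0 and limma on the deposited log2 values. Where a library was left out, the lone library of its strain was assumed to vary like the others.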

Additional observations from a re-analysis of the deposited data

Results flagged for a closer look

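Of the 43 members called in HW3826 against GR1395, 29 had log2 fold changes of opposite sign against N2 in the array strains. For 11 of these the value of at least 1 strain against N2 was itself called, and they are given here because the direct test shows that the change against N2 differed between the strains. Both strains share the N2 libraries, and a call between the array strains by itself favours opposite signs around them. The share over all genes called was not taken, so the count of 29 is not read as a trait of the family. For nhr-41, nhr-104, nhr-214 and nhr-74 the value of 1 strain against N2 was -0.02 or -0.07 log2, too small for its sign to be read.

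nhr-101 differed by -0.77 log2 (edgeR adjusted p = 0.000124), with -0.24 in HW3826 and 0.53 in GR1395. Its neighbour nhr-68 differed by -0.68 (adjusted p = 0.0012), with -0.31 and 0.37. nhr-14 differed by -0.62 (adjusted p = 0.00227), with -0.28 and 0.34, and nhr-4 by -0.49 (adjusted p = 0.00256), with -0.20 and 0.29. nhr-113 differed by 2.67 (adjusted p = 0.00264), with 0.60 and -2.08, at less than 2 CPM in every library. nhr-74 differed by 1.74 (adjusted p = 9.69e-05), with 1.67 and -0.07, and nhr-277 by 0.49 (adjusted p = 0.00567), with 0.11 and -0.38. These 7 differences held in all 6 leave-outs.

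The other 4 were each lost when at least 1 library was left out. nhr-104 differed by -0.46 (adjusted p = 0.00535), with -0.02 in HW3826 and 0.44 in GR1395, a call lost without GR1395 replicate 1. nhr-117 differed by -0.48 (adjusted p = 0.00719), with -0.13 and 0.35, lost without HW3826 replicate 1 or GR1395 replicate 1. nhr-214 differed by -1.19 (adjusted p = 0.0279), with -0.07 and 1.12, lost without either HW3826 library or GR1395 replicate 1. nhr-41 differed by -0.32 (adjusted p = 0.0395), with -0.02 and 0.30, lost without any one library of HW3826 or GR1395.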

How the results depend on the processing

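Of the counts of members called, the lower calls of HW3826 against N2 were 7 with no expression filter, against 3. Lower calls of GR1395 against N2 were 4 by limma on the deposited log2 values, against 7, and over all genes that setting gave 1446 higher and 927 lower calls, against 1192 and 1224. By DESeq2, higher calls of GR1395 against N2 were 21 of 250 members (8.4%; 5.02% of all genes), against 31 of 224. In HW3826 against GR1395, higher calls were 7 by limma, against 11. Lower calls there were 20 by DESeq2 and 47 with only the strains compared, against 32. Over all genes, the lower calls with only the strains compared were 1354, against 1077. The cause was not tested. With single libraries left out, higher and lower calls ranged from 6 to 15 and 0 to 4 in HW3826 against N2, from 7 to 46 and 2 to 7 in GR1395 against N2, and from 5 to 11 and 6 to 47 in HW3826 against GR1395. Deviations of replicate 1 from its strain mean correlated at -0.184 for HW3826 and N2. They did so at 0.0135 for GR1395 and N2, and at 0.00974 for HW3826 and GR1395. With 2 libraries a strain, these values cannot show whether replicate numbers pair the samples. With a replicate block, lower calls in HW3826 against N2 were 0, and calls in GR1395 against N2 were 20 higher and 4 lower. Members tested numbered 178 under the stricter filter, against 224. Over 195 gene and comparison pairs and 14 alternatives, 2472 results kept their side of the threshold, 187 lost a call, 63 gained one and none of the called values changed sign. With 2 libraries a strain, members below about 1 RPKM (81) rest on few counts.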
